A study of Mus musculus with 6 samples.

Results

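Complement genes were examined in osteoclast precursors from inflamed skull bone of mice that were given a JAK inhibitor or vehicle. The set holds 9 genes of 24346 gene symbols in the expression tables: *C1qa*, *C1qb* and *C1qc* of the classical pathway, *C3*, *Cfb* and *Cfp* of the alternative pathway, and the regulators *Cd55*, *Cd59a* and *Serping1*. They were chosen by gene symbol at a time when JAK inhibitor against vehicle results of these same mice were known, *Cfb* among them. Their differences between the groups are therefore given as a description, and the adjusted p beside a gene shows its place among all genes and is not independent evidence. All 9 symbols were found, and 8 reached the filter on low values, an FPKM (fragments per kilobase of transcript scaled to the mapped fragments of the library) of at least 1 in at least 1 mouse. The ninth, *Serping1*, was listed at 0 in every mouse.

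RNA-Seq was performed on EGFP+ cells sorted from calvarial bone marrow of CX3CR1-EGFP knock-in mice, in which the promoter of the fractalkine receptor gene *Cx3cr1* drives the green reporter, so the sort takes any cell in which that promoter is active, monocytes and some macrophages among them. Lipopolysaccharide (LPS, a bacterial cell wall product that drives inflammatory bone loss) was injected into the calvarial periosteum of all 6 mice at 20 mg/kg. For 5 days, 3 mice were given ABT-317, an oral inhibitor selective for the kinase JAK1. Each dose was 60 mg/kg, with 2 doses per day. The other 3 mice were given vehicle. No mouse without LPS was analysed here, so the comparison shows the inhibitor within inflammation only.

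Complement is a cascade of plasma and membrane proteins that tags microbes and dead cells. In the classical pathway, C1q, built from the products of *C1qa*, *C1qb* and *C1qc*, binds antibody or other ligands and starts the cascade through the proteases C1r and C1s. The alternative pathway runs on C3 itself: factor B (*Cfb*) joins C3b to form the convertase, and properdin (*Cfp*) stabilizes it. Host cells are guarded by membrane proteins such as CD55, which speeds the decay of convertases, and CD59, which blocks the membrane attack complex, while C1 inhibitor (*Serping1*) shuts down C1r and C1s in plasma. Most plasma complement comes from the liver, but macrophages and other myeloid cells make C1q, C3, factor B and properdin locally.

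The deposited FPKM summed to between 688372 and 775790 per mouse. Absolute depth is unknown. A rough estimate from the lowest values used the 12 of 15 pairs of mice with a clear peak in their ratios. It put the mice within 1.17-fold of each other in relative depth, with vehicle-treated mouse 3 the deepest. All 15 pairs gave 1.08-fold and the same deepest mouse, but its pair with JAK inhibitor-treated mouse 1 went the other way. Vehicle-treated mouse 3 also stood furthest from its group. Its mean correlation across tested genes was 0.974 with the other vehicle-treated mice, against 0.979 to 0.982 for the other 5 mice. The monocyte markers *Lyz2*, *Ly6c2* and *F13a1* had mean FPKM of 29511, 4146 and 619, and *Cx3cr1* itself lay between 15.5 and 36.1. *Elane* and *Mpo*, granule genes of myeloid progenitors, were also high, with mean FPKM of 2902 and 4312. Of 10 stromal and osteoblast markers, 9 did not reach an FPKM of 1 in any mouse, and *Dcn*, *Lum* and *Sp7* were listed at 0 throughout.

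**Figure D1:**
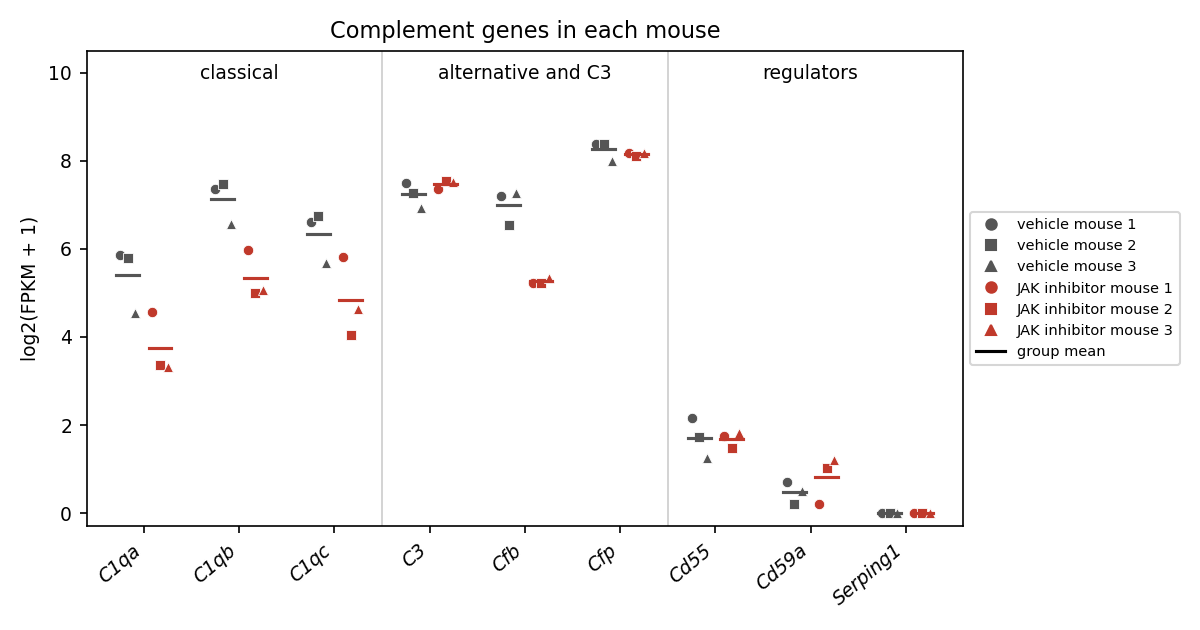
Level of each of the 9 complement genes in each mouse, as log2(FPKM + 1), with vehicle in grey and JAK inhibitor in red, 1 symbol per mouse and a line at the group mean. The red points lie below all grey points for *C1qb* and *Cfb*, the groups overlap for the other tested genes, and *Serping1* is at 0 throughout.

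Levels, which can be compared between genes because FPKM is per length, fell into an upper and a lower tier. *Cfp* was the highest of the 9 genes in 6 of 6 mice, at 308 ± 45.6 (SD, n = 3) on average with vehicle. It ranked 437 among the 11301 tested genes by its mean over all 6 mice. By vehicle means, *C3* (152), *C1qb* (144), *Cfb* (130), *C1qc* (84.5) and *C1qa* (44.7) followed. *C3*, *C1qb* and *Cfb* are neighbours whose vehicle values overlapped, so their order there is not resolved. The vehicle values of *C1qc* also overlapped those of *Cfb*, and *C1qc* lay above *Cfb* in vehicle-treated mouse 2, so that order is not resolved either. The regulators formed the lower tier, *Cd55* at 2.40 and *Cd59a* at 0.408. The order of the group means was the same with JAK inhibitor, but the gap after *C3* had widened: *C3* was at 177 and the next gene, *C1qb*, at 41.8. The values of *C1qb*, *Cfb* and *C1qc* overlapped among the treated mice, so their order is not resolved there.

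The C1q chains had lower means in JAK inhibitor-treated mice, and none passed the adjusted threshold. *C1qb* (chromosome 4, 136880129 to 136886187, minus strand, GRCm38) had an FPKM of 163, 176 and 93.3 in vehicle-treated mice 1 to 3 and 61.8, 31.1 and 32.4 in JAK inhibitor-treated mice 1 to 3. Every treated mouse lay below every vehicle-treated mouse, and the vehicle mean was 3.45 times the treated mean (log2 fold change -1.78, standard error, SE, 0.30, limma adjusted p = 0.0721 over all tested genes).

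*C1qa* (chromosome 4, 136895917 to 136898803) had 57.3, 54.5 and 22.5 with vehicle and 22.7, 9.23 and 9.0 with JAK inhibitor. Its groups touched, since treated mouse 1 lay just above vehicle-treated mouse 3 (log2 fold change -1.66, SE 0.41, limma adjusted p = 0.122). *C1qc* (chromosome 4, 136889804 to 136893065), which lies between the other chain genes in the same cluster, had 96.8, 106 and 50.6 with vehicle and 55.7, 15.6 and 23.7 with JAK inhibitor. Here too mouse 1 of the treated group overlapped mouse 3 of the vehicle group (log2 fold change -1.51, SE 0.42, limma adjusted p = 0.154).

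All 3 chains thus had the same inner pattern: vehicle-treated mouse 3 was the lowest of its group and JAK inhibitor-treated mouse 1 the highest of its group. Summed over the chains, the FPKM was 317, 337 and 166 with vehicle and 140, 56.0 and 65.2 with JAK inhibitor. The *C1qa* to *C1qb* ratio was similar, at 0.300 ± 0.055 (SD, n = 3) under vehicle against 0.314 ± 0.048 (SD, n = 3) under JAK inhibitor. The *C1qc* to *C1qb* ratio was 0.579 ± 0.032 (SD, n = 3) and 0.711 ± 0.201 (SD, n = 3), with groups that overlapped. Among treated mice it varied more, from 0.501 to 0.900. The *C1qa* to *C1qc* ratio was 0.516 ± 0.074 (SD, n = 3) and 0.460 ± 0.115 (SD, n = 3), also with overlap. No C1q chain passed an adjusted p of 0.05. Without vehicle-treated mouse 3, *C1qb* (adjusted p = 0.00909 in limma) and *C1qa* (0.0240) did pass, with log2 fold changes of -2.07 and -2.08. Leaving out any other 1 mouse gave adjusted p in limma of 0.0609 to 0.250 for *C1qb* and 0.160 to 0.322 for *C1qa*.

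C1q in tissues is mostly a product of macrophages, so macrophage markers were read beside it. Of 14 listed markers 13 were tested, and 11 had a negative log2 fold change, as did 5715 of all 11301 tested genes. For 2, *Apoe* (vehicle mean 1823, treated mean 832) and *Mertk* (5.01 and 0.746), all treated mice lay below all vehicle-treated mice, as for 12.1% of all tested genes. Neither passed the adjusted threshold. The median of the list was -0.19, and its summed FPKM, most of it *Apoe*, ran from 2124 to 3102 with vehicle and from 1342 to 1635 with JAK inhibitor. *Adgre1*, the gene of the macrophage antigen F4/80, had means of 76.7 and 70.7 (log2 fold change -0.10, SE 0.14), and the summed C1q FPKM per *Adgre1* FPKM was 3.45, 4.50 and 2.63 with vehicle and 2.15, 0.811 and 0.837 with JAK inhibitor, a ratio chosen after the values were seen. *Timd4*, a marker of resident macrophages, was listed at 0 in 5 of 6 mice. The part of these cells in the C1q difference was not tested, and in bulk RNA fewer cells of a type and less RNA per cell cannot be told apart.

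*Cfb* (chromosome 17, 34856374 to 34862518, minus strand), which encodes factor B, was the gene of the set with the clearest difference. Its FPKM was 146, 91.8 and 153 in vehicle-treated mice 1 to 3 and 36.2, 36.4 and 39.8 in JAK inhibitor-treated mice 1 to 3. The treated mice lay close together, with a coefficient of variation of 5.38% against 25.7% with vehicle, and far below the lowest vehicle-treated mouse. The log2 fold change was -1.74 (SE 0.18, 95% interval -2.14 to -1.33, limma adjusted p = 0.0181), a vehicle mean 3.48 times the treated mean. It was the only 1 of the 8 tested genes of the set to pass an adjusted p of 0.05 on the lower side, where 0.0973% of all tested genes passed, and 0 of the 8 passed on the higher side, where 0.0354% of all tested genes passed. The call needed all 3 treated mice: without JAK inhibitor-treated mouse 1, 2 or 3 the adjusted p in limma was 0.0713, 0.0852 or 0.0795, with log2 fold changes of -1.71, -1.72 and -1.78.

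On the same strand, the GENCODE M21 annotation places *C2* (chromosome 17, 34862604 to 34898265) directly upstream of *Cfb* and a read-through model, Gm20547 (34856412 to 34882042), across both. *C2*, the classical pathway counterpart of factor B, was listed at no more than 0.029 in any mouse. Reads from such overlapping models could have been split by the authors' counting, so the levels of *C2* and *Cfb* are uncertain to that extent. The read-through model has no deposited FPKM under that symbol, so it could not be analysed here.

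The other alternative pathway genes of the set did not follow *Cfb*. *C3* (chromosome 17, 57203970 to 57228136, minus strand), the protein on which all pathways meet, had 180, 154 and 121 with vehicle and 164, 187 and 181 with JAK inhibitor. The groups overlapped, and the 95% interval of its log2 fold change of 0.24 ran from -0.08 to 0.56. *Cfp* (chromosome X, 20925454 to 20931555, minus strand), the gene of properdin, had 333, 335 and 255 with vehicle and 290, 275 and 291 with JAK inhibitor, which gave a log2 fold change of -0.10 with an interval of -0.36 to 0.16. Neither interval reached the size of the *Cfb* difference.

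Within each mouse, the *Cfb* to *C3* ratio was 0.809, 0.594 and 1.27 with vehicle and 0.221, 0.195 and 0.219 with JAK inhibitor. The *Cfb* to *Cfp* ratio was 0.437, 0.274 and 0.601 with vehicle and 0.125, 0.132 and 0.137 with JAK inhibitor. In both ratios all treated mice lay below all vehicle-treated mice, and a ratio within a mouse does not depend on how the libraries were scaled against each other. The *C3* to *Cfp* ratio, chosen after its values were seen, was 0.491 ± 0.043 (SD, n = 3) under vehicle and 0.623 ± 0.057 (SD, n = 3) under JAK inhibitor, with all treated mice above all vehicle-treated mice. By contrast, the summed C1q chains per *Cfb* overlapped, at 2.18, 3.67 and 1.08 with vehicle and 3.87, 1.54 and 1.64 with JAK inhibitor.

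**Figure D2:**
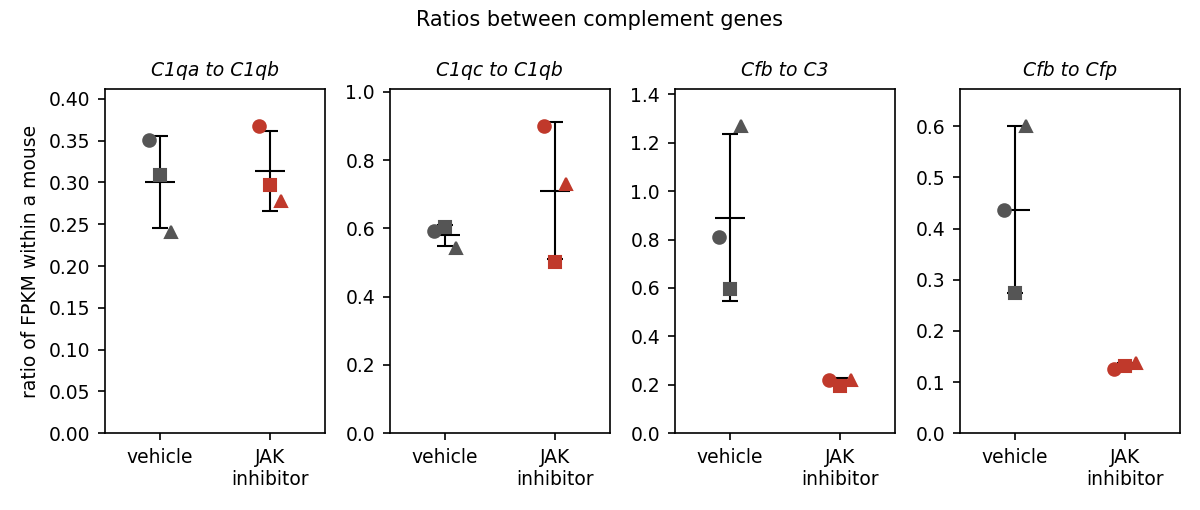
Ratios of FPKM within each mouse for pairs of complement genes, with vehicle in grey and JAK inhibitor in red, circles, squares and triangles for mice 1, 2 and 3, and a bar for the mean ± SD of 3 mice. The ratios between C1q chains overlap, whereas *Cfb* relative to *C3* and to *Cfp* is lower in every treated mouse.

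The membrane regulators were near the lower limit of what the tables resolve. *Cd55* (chromosome 1, 130439027 to 130462744, minus strand) had 3.50, 2.32 and 1.38 with vehicle and 2.39, 1.81 and 2.52 with JAK inhibitor, so the groups overlapped, and its log2 fold change of -0.03 had a 95% interval of -0.60 to 0.55. *Cd59a* (chromosome 2, 104095801 to 104115354, plus strand) had 0.637, 0.161 and 0.425 with vehicle and 0.163, 1.04 and 1.30 with JAK inhibitor. It passed the filter only through the treated mice 2 and 3, and its log2 fold change was 0.34 with an interval of -0.36 to 1.04. Both genes have a close copy, for which reads could be shared. *Cd55b* was listed at 0 in all mice and *Cd59b* at no more than 0.260. *Serping1* (chromosome 2, 84765387 to 84775444, minus strand), as stated, was listed at 0 in all 6 mice, and no fold change is given.

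Set side by side, the arms differed in the size of the difference. The mean log2(FPKM + 1) of the classical arm was 6.29 ± 0.60 (SD, n = 3) under vehicle against 4.64 ± 0.71 (SD, n = 3) under JAK inhibitor. For the alternative arm it was 7.50 ± 0.17 (SD, n = 3) and 6.97 ± 0.05 (SD, n = 3), a difference that *Cfb* carried, since the median log2 fold change of that arm was -0.10 against -1.66 in the classical arm. For the 2 tested regulators the level was 1.44, 0.97 and 0.88 in vehicle-treated mice and 0.99, 1.26 and 1.51 in treated mice, which overlapped. No test was made of the differences between arms, which rest on 3 genes or fewer each. The median log2 fold change over all tested genes was -0.0035.

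Counted over the 8 tested genes, 4 (*C1qa*, *C1qb*, *C1qc* and *Cfb*) were lower at an unadjusted p under 0.05, against 9.4% of all tested genes, and 0 were higher, against 6.57%. Groups without overlap were found for 2 genes on the lower side (*C1qb* and *Cfb*), against 12.1% of all tested genes, and for 0 on the higher side, against 9.92%. These shares rest on the contrast that was known when the genes were chosen. For a single gene, an exact 2-sided permutation test of 3 mice against 3 cannot go below p = 0.1, which was its value for *C1qb* and *Cfb*.

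Promoter sequences were taken from RefSeq on GRCm38.p6 for the 6 of 9 genes that had an entry there, 250 bases before to 50 bases after the start of transcription. *C1qa*, *Cfb* and *Serping1* were not part of the motif search. The promoters of *C1qb* (log2 fold change -1.78) and *C1qc* (-1.51), neither of which passed the adjusted threshold, are shown beside those of *C3* (0.24), *Cfp* (-0.10) and *Fcnb* (1.48), a gene described further on. Both strands were searched for a STAT site (GAS, TTCNNNGAA, the same on both strands), the core of the interferon-stimulated response element (GAAANNGAA), an NF-kB core (GGGANNTTC) and a C/EBP core (TTGCNNAA). Capitals mark a match to any of these, and the 5 sequences run 5′ to 3′ on the strand of the gene.
C1qb, chr4:136886151-136886450, minus strand: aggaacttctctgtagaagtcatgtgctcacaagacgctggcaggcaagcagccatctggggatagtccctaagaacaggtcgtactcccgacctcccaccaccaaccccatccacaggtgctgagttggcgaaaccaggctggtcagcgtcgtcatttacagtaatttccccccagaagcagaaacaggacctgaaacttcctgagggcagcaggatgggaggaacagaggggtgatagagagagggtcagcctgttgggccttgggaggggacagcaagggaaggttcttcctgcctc
C1qc, chr4:136892865-136893164, minus strand: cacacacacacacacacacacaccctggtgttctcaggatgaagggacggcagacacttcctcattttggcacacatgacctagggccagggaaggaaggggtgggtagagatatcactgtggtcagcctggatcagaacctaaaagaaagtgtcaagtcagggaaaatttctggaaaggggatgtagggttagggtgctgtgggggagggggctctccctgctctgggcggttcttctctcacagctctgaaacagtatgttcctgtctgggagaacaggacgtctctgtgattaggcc
C3, chr17:57228087-57228386, minus strand: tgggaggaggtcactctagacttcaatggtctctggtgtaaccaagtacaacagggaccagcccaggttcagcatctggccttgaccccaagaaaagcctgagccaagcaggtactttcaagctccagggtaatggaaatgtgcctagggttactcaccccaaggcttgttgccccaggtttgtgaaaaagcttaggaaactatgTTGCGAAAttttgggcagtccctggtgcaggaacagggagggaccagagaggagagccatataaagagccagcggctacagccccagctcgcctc
Cfp, chrX:20931506-20931805, minus strand: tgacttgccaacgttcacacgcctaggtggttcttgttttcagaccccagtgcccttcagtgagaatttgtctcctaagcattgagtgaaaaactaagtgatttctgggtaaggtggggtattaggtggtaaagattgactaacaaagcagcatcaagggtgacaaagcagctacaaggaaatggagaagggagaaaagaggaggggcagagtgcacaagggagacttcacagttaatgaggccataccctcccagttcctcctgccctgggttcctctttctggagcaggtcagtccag
Fcnb, chr2:28084829-28085128, minus strand: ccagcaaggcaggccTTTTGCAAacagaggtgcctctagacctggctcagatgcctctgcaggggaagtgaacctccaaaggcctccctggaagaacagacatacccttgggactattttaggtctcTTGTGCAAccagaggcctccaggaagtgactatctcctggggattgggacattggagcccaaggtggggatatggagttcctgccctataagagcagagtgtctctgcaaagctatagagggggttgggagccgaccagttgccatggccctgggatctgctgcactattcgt

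In these letters *C1qb*, *C1qc* and *Cfp* held none of the motifs. *C3* held 1 C/EBP core, TTGCGAAA, from -45 to -38 relative to the start, and *Fcnb* held 2 on the reverse strand, from -235 to -228 and from -123 to -116. Among the other genes of the set, *Cd59a* held 1 interferon response core from -187 to -179 and *Cd55* none. Of the 32851 promoters in the table, 8.30% held the STAT site, 8.56% the interferon response core, 3.94% the NF-kB core and 10.8% the C/EBP core. A match is a string of letters and not a measured binding site.

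Beyond the 9 genes, 48 other complement genes are described by role, of which 18 reached the filter and 17 were listed at 0 in every mouse. Of the 18 tested, 0 passed an adjusted p of 0.05 in limma in either direction. At an unadjusted p under 0.05, 2 were higher and 5 lower, and 3 were higher and 4 lower with groups that did not overlap. Over all tested genes, 6.57% were higher and 9.4% lower by that p, and 9.92% were higher and 12.1% lower without overlap. The median log2 fold change was -0.29.

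**Figure D3:**
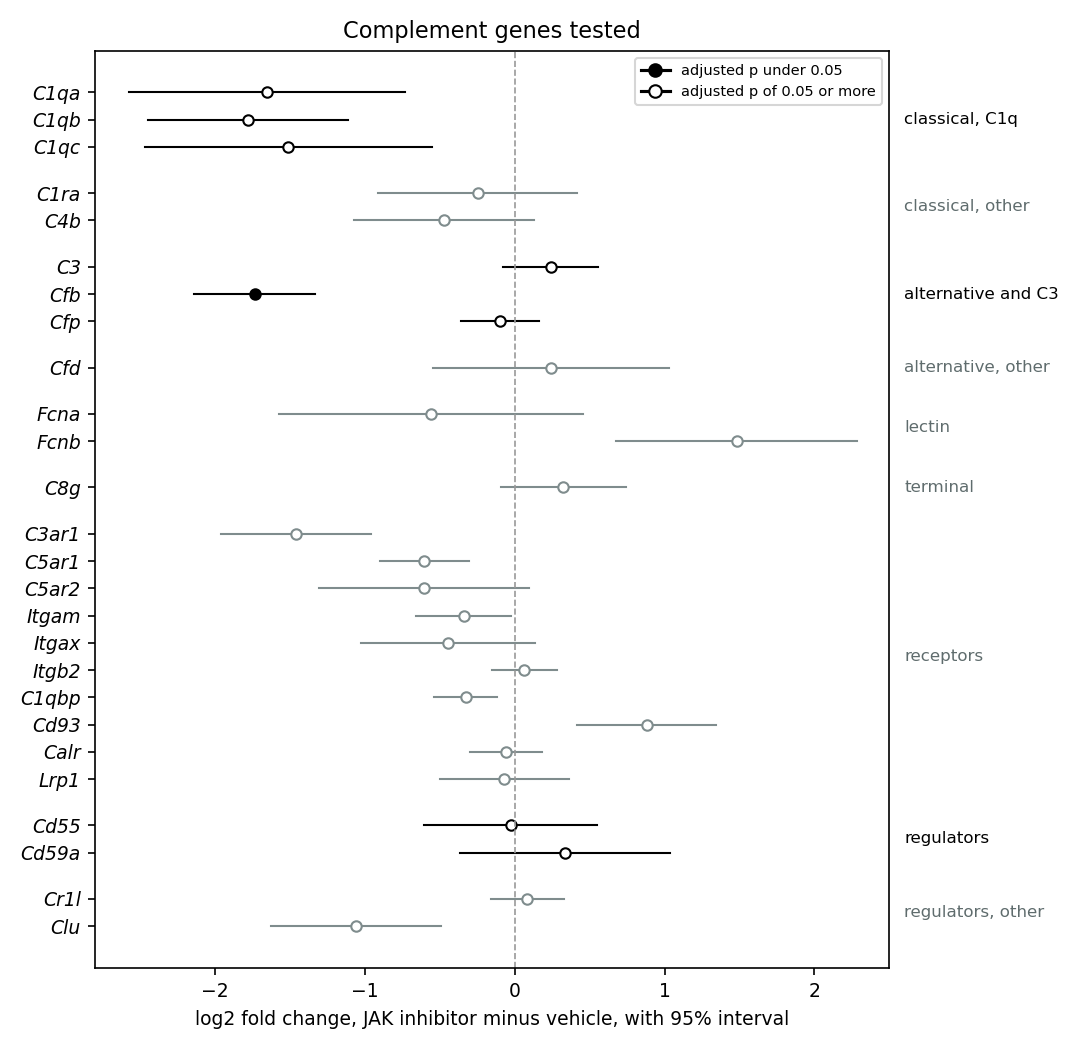
Log2 fold change (JAK inhibitor minus vehicle, on log2(FPKM + 1)) with its 95% interval for the tested complement genes by role, the 8 of the set in black and the 18 others in grey. *Cfb*, on the lower side, is the filled point, which limma called at an adjusted p under 0.05.

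*Cfd*, the gene of factor D, which cleaves factor B, was at 0 in 3 mice and reached at most 1.2, in JAK inhibitor-treated mouse 3. Among lectin pathway genes, *Fcnb*, the gene of ficolin B, a pattern recognition protein of myeloid cells, had 117, 115 and 43.6 with vehicle and 325, 207 and 194 with JAK inhibitor. All treated mice were above all vehicle-treated mice (log2 fold change 1.48, SE 0.36, limma adjusted p = 0.118), which missed the threshold. Without vehicle-treated mouse 3 the log2 fold change was 1.02 with an adjusted p of 0.0455 in limma, and leaving out any other 1 mouse gave 0.0764 to 0.324. The granule genes *Elane* (means of 1924 with vehicle and 3880 with JAK inhibitor), *Mpo* (3105 and 5519) and *Camp* (245 and 797) were also higher without overlap. On the same neutrophil list of 10, of which 9 had values, *Mmp8* (248 and 115) and *Cxcr2* (7.94 and 4.03) were lower without overlap. The groups overlapped for *S100a8*, *S100a9*, *Retnlg* and a further granule gene, *Ltf* (33.3 and 54.6). None of these 9 passed the adjusted threshold. Over all tested genes, 9.92% were higher and 12.1% lower without overlap. The list as a whole had a median of -0.18 and a summed FPKM of 16842 to 22898 with vehicle and 16971 to 23725 with JAK inhibitor. The part of these cells in the *Fcnb* difference was not tested.

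Of the complement receptors, 10 of 12 were tested. *C3ar1*, the receptor for the anaphylatoxin C3a, had 6.20, 8.74 and 12.0 with vehicle and 2.82, 2.43 and 2.33 with JAK inhibitor, without overlap (log2 fold change -1.46, SE 0.22, limma adjusted p = 0.0557). That p missed the threshold. In limma it was 0.0298, 0.0514 and 0.0284 without vehicle-treated mouse 1, 2 or 3, and 0.168, 0.227 and 0.201 without JAK inhibitor-treated mouse 1, 2 or 3. *C5ar1*, the receptor for C5a, had 95.3, 81.9 and 112 with vehicle and 70.0, 57.4 and 61.0 with JAK inhibitor, again without overlap (log2 fold change -0.61, SE 0.13, limma adjusted p = 0.109). For the other C5a receptor, *C5ar2*, the groups overlapped, with means of 2.59 and 1.30.

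Complement receptor 3 is the integrin of the *Itgam* and *Itgb2* products, which binds fragments of C3. For *Itgam* the log2 fold change was -0.34 (SE 0.14, limma adjusted p = 0.282), with means of 99.3 and 77.4 and groups that overlapped, while *Itgb2*, at 391 and 407, had 0.06 with a 95% interval of -0.15 to 0.28. Molecules that bind C1q differed among themselves. *C1qbp*, a mainly mitochondrial protein first found by its binding of C1q, was at 185 and 147 without overlap (log2 fold change -0.33, SE 0.09, limma adjusted p = 0.154), and *Cd93*, once described as a C1q receptor, was at 4.33 and 8.56 without overlap (0.88, SE 0.21, limma adjusted p = 0.117). Leaving out vehicle-treated mouse 2 brought *Cd93* to an adjusted p of 0.0359 in limma, the only 1 of the 14 alternatives under 0.05, and leaving out any other 1 mouse gave 0.151 to 0.304. *Calr* and *Lrp1*, whose products bind C1q on dying cells and phagocytes, had log2 fold changes of -0.06 and -0.07.

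Few other soluble components were measured above the filter. *C1ra* reached means of at most 1.40, and its log2 fold change was -0.25. *C4b* was lower still, averaging 0.729 in vehicle-treated mice and 0.235 in treated mice. It passed the filter only through vehicle-treated mouse 1, at 1.10, which favours the negative sign of its log2 fold change, -0.47. *C4b* also has a near-identical copy, *C4a*, listed at no more than 0.049. *C1s1* reached at most 0.717. Of the terminal components, *C8g* passed the filter, at 1.90 and 2.61 without overlap (log2 fold change 0.32, SE 0.18, limma adjusted p = 0.432), and *Hc* (the gene of C5), *C7*, *C8a*, *C8b* and *C9* were listed at 0 in all mice. Among other regulators, *Clu*, the gene of clusterin, which restrains the terminal complex, had 5.55, 4.0 and 7.52 with vehicle and 2.70, 2.47 and 1.40 with JAK inhibitor, without overlap (log2 fold change -1.06, SE 0.25, limma adjusted p = 0.117). *Cr1l*, which encodes the rodent membrane regulator Crry, was far higher than *Cd55* and level between the groups, at 62.7 ± 7.47 (SD, n = 3) and 66.3 ± 3.43 (SD, n = 3), with a log2 fold change of 0.08 and an interval of -0.16 to 0.33.

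**Figure D4:**
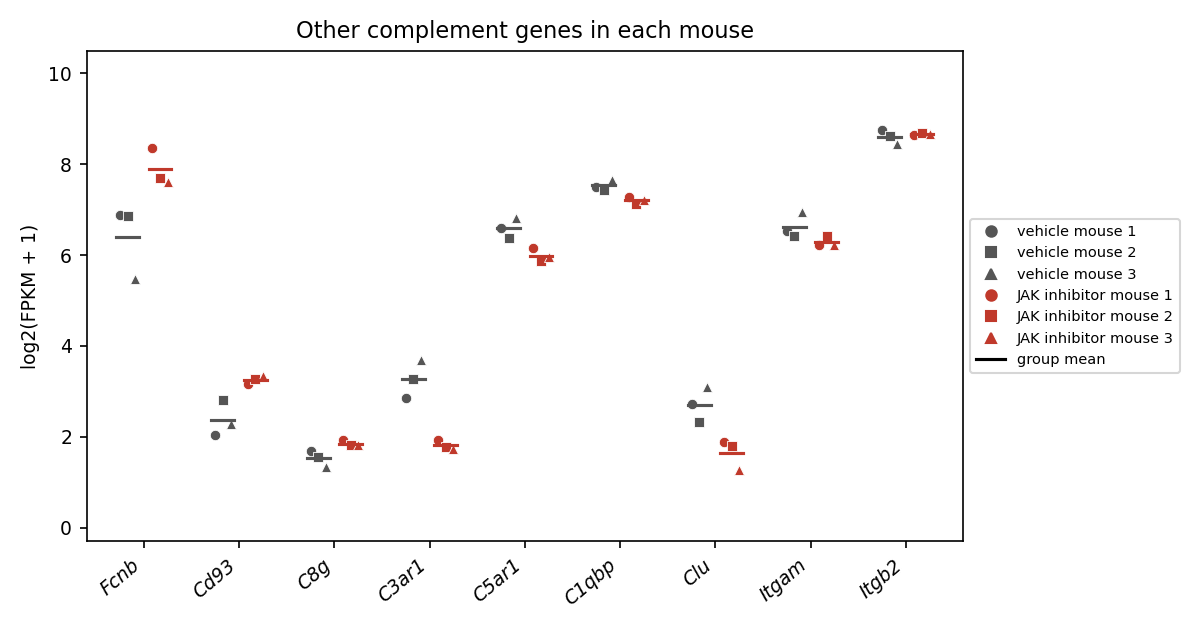
Level of 9 other complement genes in each mouse as log2(FPKM + 1), with vehicle in grey, JAK inhibitor in red and a line at the group mean. *Fcnb*, *Cd93* and *C8g* have all treated mice above all vehicle-treated mice, *C3ar1*, *C5ar1*, *C1qbp* and *Clu* have all below, and *Itgam* and *Itgb2* overlap.

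Likeness across the 6 mice was described by Pearson's r of log2(FPKM + 1) over 7735 other genes with a mean FPKM of at least 5, without a p. The highest of so many values over 6 mice can be very high for unrelated genes, so they are a description only. The closest to *Cfb* were *Ctsz* (cathepsin Z, r = 0.996), *Phb2* (prohibitin 2, 0.995), *Taf9* (0.993), *Psmd14* (0.993) and *Eif5a* (0.990). The differences of these genes were far smaller than that of *Cfb*, with log2 fold changes from -0.15 (*Taf9*) to -0.44 (*Phb2*). The closest to the mean of the C1q chains were *Lyar* (0.988), *Pf4* (platelet factor 4, 0.985), *Wdr83* (0.983), *H2-Eb1* (an MHC class II chain, 0.983) and *Ticam1* (the adaptor TRIF, 0.980). Of these, *Pf4* had a difference of the same size as the C1q chains, with means of 28.3 under vehicle and 8.10 under JAK inhibitor (log2 fold change -1.82, limma adjusted p = 0.157).

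Genes that report JAK-STAT signaling gave a mixed picture, and none passed the adjusted threshold. Of 8 listed, 4 (*Socs3*, *Bcl3*, *Stat3* and *Irf1*) were lower without overlap, against 12.1% of all tested genes, and the median log2 fold change was -0.20. *Socs3*, the feedback inhibitor of IL-6 family signaling, had 19.9, 9.48 and 52.3 with vehicle and 8.30, 7.74 and 9.28 with JAK inhibitor. The monocyte list had a median of 0.01. Of its 10 genes, 3 were lower without overlap, against 12.1% of all tested genes, and 0 were higher, against 9.92%. The 3 were *Cd14* (log2 fold change -0.83), *Fcgr1* (-1.15) and *Fn1* (-0.65), none past the adjusted threshold. Their part in the C1q and *Cfb* differences was not tested. The osteoclast list had a median of -1.32 with 7 tested genes all negative, where 5715 of all 11301 tested genes were negative. Of the 7, *Ocstamp*, *Dcstamp* and *Oscar* passed the filter only through vehicle-treated mice, which favours a negative sign. None of the 7 passed the adjusted threshold. Medians were 0.05 for the dendritic cell list, -0.03 for the lymphocyte list and 0.51 for the erythroid and megakaryocyte list. The endothelial list had 2 tested genes with a median of 0.53, the stromal list 1 tested gene (*Pdgfrb*, 0.29), and the 10 housekeeping genes a median of 0.03. Of these 10, 2 were lower without overlap, *Gapdh* (log2 fold change -0.50) and *Pgk1* (-0.38), against 12.1% of all tested genes. *Tbp* (0.23) was higher without overlap, against 9.92%, and none of the 10 passed the adjusted threshold.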

How the data were processed

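Per the labels, the submitters' processing notes name TopHat2 2.0.13, Bowtie2 2.2.3, SAMtools 0.1.19, Cufflinks 2.2.1 and mm10, and the authors deposited 1 table of FPKM per mouse. The annotation is not given in the sources used here. Reads were 75 bases, single-end. The methods name a stranded mRNA kit and the labels SMART-Seq HT with Nextera, so use of strand is unknown.

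FPKM were kept as deposited. The 11301 genes that reached an FPKM of 1 in 1 or more of the 6 mice were compared as log2(FPKM + 1) with limma 3.58.1 in R 4.3.3 (trended empirical Bayes, p adjusted by Benjamini-Hochberg across these genes, no replicate block), and fold changes on this scale understate those of low genes. The model was tested on simulated data. The 9 genes, the other complement genes and the marker lists were chosen with earlier results of these data known. Named genes are the 9, other complement genes with an unadjusted p under 0.05, groups without overlap or a fixed role, the 5 most alike genes, and leading markers or those at 0. Others, and the ratios C1qc to C1qb and C1q to Cfb, were chosen after their values were seen. Replicates are separate mice per the study, although the labels call the samples a cell line. Same-numbered mice showed little shared deviation (correlations from -0.0002 to 0.0542), which cannot exclude a shared batch, and numbers were not taken as pairs. Positions are from GENCODE M21 (GRCm38). Python 3.11.15, pandas 2.3.3 and matplotlib 3.10.9 were used. The alternatives were another pseudocount, other filters, scalings, variance models and a replicate block, and each mouse left out. Results for 1 gene are not reported here.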

Additional observations from a re-analysis of the deposited data

How the results depend on the processing

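Over the 14 alternatives, the log2 fold change of *Cfb* ran from -1.97 to -1.60, and that of *C1qb* from -2.09 to -1.61, with adjusted p in limma of 0.000235 to 0.181 and 0.00909 to 0.25. *Cfb* passed an adjusted p of 0.05 in 9 of the 14. What changed was the number of calls. Against 15 of all tested genes, 1 of the set and 0 of the other complement genes, there were 2, 0 and 0 with no filter. There were 34, 2 and 1 with an FPKM of at least 1 in 3 mice, and 2, 0 and 0 with no trend. Library weights gave 63, 3 and 1. The replicate number as a block gave 67, 3 and 1, although the numbers were not taken as pairs. A pseudocount of 0.1 gave 1 of the other complement genes. Leaving out 1 mouse gave 3 to 95 of all tested genes, 0 to 3 of the set and 0 to 2 of the others, with 0 of the set whichever JAK inhibitor-treated mouse was left out and 1 to 3 whichever vehicle-treated mouse was. The median of the alternative arm ran from -0.229 (without vehicle-treated mouse 3) to -0.033 (without vehicle-treated mouse 2), and the sign of *Cd55* changed, with -0.26 to 0.20. The cause of these shifts was not tested. Absolute depth is unknown, which limits *Cd55*, *Cd59a* and other genes near an FPKM of 1.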
